A study of Mus musculus with 24 samples.

Results

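Interferon-stimulated genes are the genes that a cell switches on after it senses an interferon, and 49 of them were followed here through 24 libraries of mouse heart fibroblasts. They were named from what is known of the interferon response, at a time when earlier results of these data were known. Each needed 10 or more counts in at least 3 libraries. All 49 met that rule, as did 14974 of the 35727 gene identifiers of the count table, and all 49 were among the 14804 genes tested. The cells were grown in EGM2, a medium sold for endothelial cells, and carry the label control, Erg, Sox17 or SEG. They were harvested at day 3 or day 7, with 3 libraries for each of the 8 groups. Erg (an ETS family protein) and Sox17 (a SOX family protein) are transcription factors of endothelium. The study calls the cells with a factor aiECs, leaves SEG without a fuller name, and asked how far these cells take on an endothelial identity. The labels do not state the strain, the age of the animals or the means by which the factors were brought in. They also do not say whether the 3 libraries of a group come from different cultures or mice, so each p reflects only how far these libraries vary, and that variation may be technical.

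The libraries held between 18794422 and 44586227 counts each. The 10 fibroblast markers summed to 29655 to 32356 CPM (counts scaled to library size) in control at day 3 and 23213 to 24784 at day 7, and the 10 endothelial markers to 19.2 to 21.4 and 25.9 to 29.99 CPM, so the control libraries carried the markers of their label. Replicate 1 of Sox17 at day 7 stood apart, with 8.50% of its counts in genes of ribosomal proteins against 3.69% and 3.38% in the other libraries of its group. Replicate 1 of SEG at day 7 held 5.79%, against 3.91% and 3.93%. Both are called the outlying day 7 libraries below, and results that rest on them are given with and without them.

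Interferons bind receptors at the cell surface, and kinases of the Jak family then phosphorylate Stat proteins. Stat2 and Irf9 are parts of a complex that binds a DNA element of paired GAAA letters, the interferon-stimulated response element. Interferon gamma acts through another element, a palindrome of TTC and GAA called the gamma-activated site. The genes so switched on sense viral nucleic acid, block viral replication, tag proteins with Isg15, present antigen and feed back on the pathway. Fibroblasts make a low level of many of these proteins at rest, and their sensors and interferons together form the first alarm of connective tissue.

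The letters of the element can be read close to the start site of many of the genes. RefSeq windows of GRCm38.p6, from 250 bases before to 50 bases after a start site, were at hand for 38 of the 49 genes. The letters GAAANNGAAA were searched on both strands and stood in the windows of 19 of the 38 genes, against 3.99% of the 27025 genes of the table. The letters TTCNNNGAA, which read nearly alike on both strands and can share letters with the other motif, stood in 11 of 38, 28.9%, against 9.55%. In Ifih1, Ddx58, Eif2ak2 and Ifitm3 the first GAAANNGAAA match lies after the start site and not in front of the gene. A match is a description of these letters and not a shown binding site. Of the remaining genes, Dhx58, Ifi27, Iigp1, Mx1, Mx2, Oas2, Parp14, Parp9, Rtp4, Usp18 and Zbp1 are named only.

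The stretches that follow are shown as examples of the GAAA pair in genes of 5 of the roles described later. Each is written 5′ to 3′ on the gene's own strand, ends before the start site, and has the GAAA pairs (or TTTC pairs, where the element lies on the opposite strand) in capitals.
Isg15: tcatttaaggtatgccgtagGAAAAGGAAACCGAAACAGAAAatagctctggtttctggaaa
Ifit1: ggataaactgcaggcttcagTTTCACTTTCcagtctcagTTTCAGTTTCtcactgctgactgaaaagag
Ifit3: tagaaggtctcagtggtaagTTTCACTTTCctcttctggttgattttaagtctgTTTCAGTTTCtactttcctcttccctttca
Ifit3b: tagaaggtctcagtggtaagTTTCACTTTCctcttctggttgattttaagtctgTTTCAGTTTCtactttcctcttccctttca
Oas3: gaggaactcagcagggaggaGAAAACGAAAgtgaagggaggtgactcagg
Rsad2: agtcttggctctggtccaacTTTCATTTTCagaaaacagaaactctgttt
Gbp3: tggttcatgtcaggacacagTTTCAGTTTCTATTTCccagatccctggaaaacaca
Irgm1: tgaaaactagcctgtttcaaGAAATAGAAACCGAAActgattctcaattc

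These stretches lie at chr4:156200855-156200916, minus strand (Isg15), chr19:34640765-34640833, plus strand (Ifit1), chr19:34583353-34583436, plus strand (Ifit3), chr19:34607749-34607832, plus strand (Ifit3b), chr5:120777705-120777754, minus strand (Oas3), chr12:26456543-26456592, minus strand (Rsad2), chr3:142559979-142560034, plus strand (Gbp3) and chr11:48871421-48871470, minus strand (Irgm1) of GRCm38.p6. In Isg15, 3 overlapping matches run into one another, and in Gbp3 and Irgm1 there are 2. Ifit1 and Ifit3 each have 2 separate TTTC pairs. The Ifit3 and Ifit3b stretches were alike at 84 of 84 bases, and since the transcripts of these paralogs also resemble each other, their counts are uncertain as separate values. The 19 genes with the GAAA pair were set beside the 19 without it. With SEG at day 3, 15 of 19 with it and 15 of 19 without it fell, with median log2 changes of -1.11 and -1.07. With Sox17 at day 7 the counts were 19 and 17 and the medians -1.43 and -1.30. With Erg at day 3 they were 14 and 13, with medians of -1.10 and -0.74. With Sox17 at day 3 they were 13 and 15, with -1.19 and -0.86. At day 7 they were 9 and 11 with Erg (-0.69 and -0.56) and 8 and 11 with SEG (-0.53 and -0.56). Over all genes tested, 19.6% to 25.0% were called lower in these comparisons with control. The difference between the 19 and the 19 was not tested.

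As a set, the interferon-stimulated genes were lower in cells with a factor than in control cells, and higher at day 7 than at day 3 in each condition. For each library, the log2 CPM of each gene was scaled to a mean of 0 and an SD of 1 over the 24 libraries and averaged over the 49 genes. This mean score was 0.0963 to 0.291 in control at day 3 and 1.24 to 1.37 at day 7. At day 3 it was -1.06 to -0.597 with Erg, -1.23 to -0.677 with Sox17 and -1.42 to -0.680 with SEG, all below control of the same day. At day 7 it had reached 0.636 to 0.790 with Erg and 0.676 to 0.806 with SEG, above day 3 control and below day 7 control. The Sox17 libraries at day 7 stayed at -0.154 to 0.0436, below every control library of day 3. In these bulk libraries, fewer cells of a responding type and less RNA per cell cannot be told apart. Markers of other cell types moved in the same comparisons. The 10 fibroblast markers summed to 19469 to 20205 CPM with Erg, 15866 to 16272 with Sox17 and 17666 to 18942 with SEG at day 3, and to 10192 to 11347, 6493 to 10556 and 17443 to 19109.8 CPM at day 7, all below the control libraries of the same day. Against control, 8 of the 10 fell with Erg, 9 with Sox17 and 10 with SEG at day 3, and 9, 9 and 8 at day 7. In the same order, 23.5%, 19.6% and 20.2% of all genes tested were called lower at day 3 and 24.8%, 25.0% and 21.8% at day 7. The 10 endothelial markers summed to 7238 to 7326 CPM with Erg, 525 to 626 with Sox17 and 2708 to 2838 with SEG at day 3, and to 4484 to 5978, 154 to 387 and 2841 to 3333 CPM at day 7. The gene Erg is itself 1 of these 10. Over the 24 libraries it held 1052563 counts, against 141713 for Cdh5, so the sums do not separate the factor from the other markers. Of the 10 markers, Erg included, 8 rose with Erg, 6 with Sox17 and 10 with SEG at day 3, and 8, 6 and 9 at day 7. Of 7 markers of smooth muscle and pericytes, 4, 5 and 6 rose at day 3 and 5, 5 and 6 at day 7, in the same order. The shares of all genes called higher were 22.6%, 20.8% and 20.0% at day 3 and 23.7%, 29.5% and 22.5% at day 7. The part of these marker shifts in the fall of the 49 genes was not tested. The heatmap of the 49 genes shows these steps gene by gene.

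**Figure D1:**
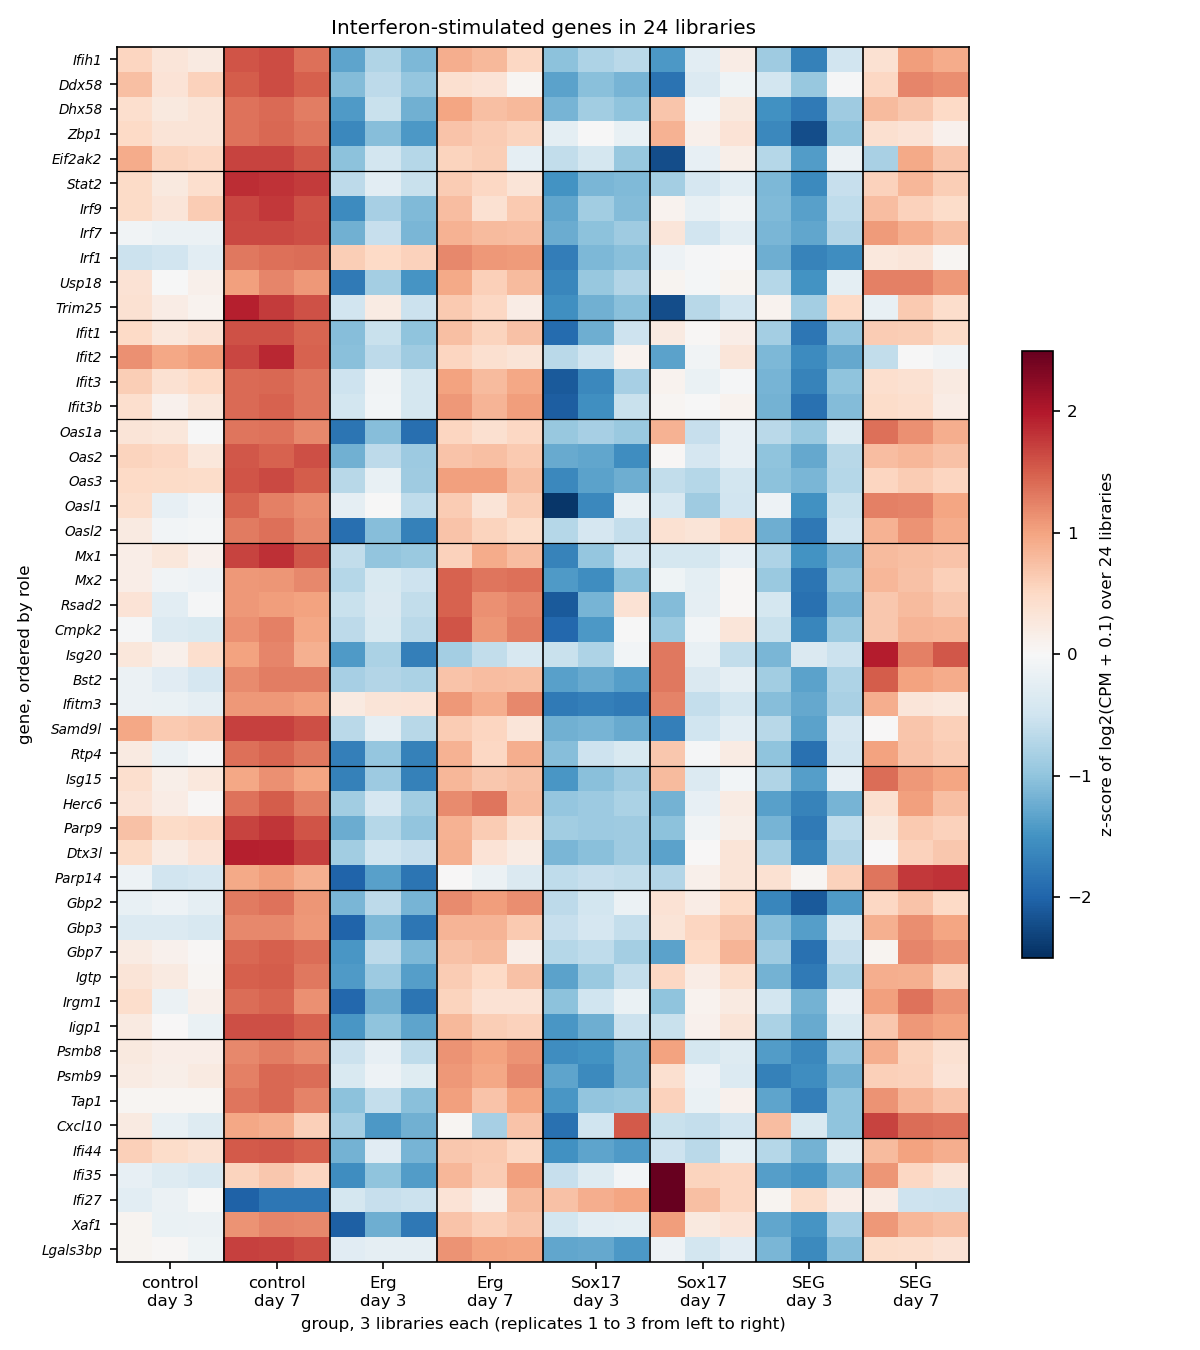
Scaled level of the 49 genes (rows, ordered by role, divided by lines) in the 24 libraries (columns, 3 per group), as the z-score of log2(CPM + 0.1) over the libraries. Control at day 7 is high (red) for most rows, the 3 factor conditions at day 3 are low (blue), and Sox17 at day 7 stays near 0, while Ifi27 runs the other way.

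A gene was called higher or lower where edgeR's quasi-likelihood test, adjusted by Benjamini-Hochberg over all 14804 genes, gave a p under 0.05. With Erg at day 3, 37 of the 49 genes fell and 1 rose, beside 23.5% of all genes tested that were called lower and 22.6% called higher. Their median log2 change was -1.04, against -0.01 over all genes tested. With Sox17 at day 3, 36 fell and 1 rose (background 19.6% lower, 20.8% higher), with a median of -1.08 against 0.01. SEG at day 3 gave 39 lower and 1 higher (background 20.2% and 20.0%), with a median of -1.11 against 0.01. The 3 comparisons share their control libraries, so their likeness is partly built in. The share of lower calls among these genes was above the background in all 3. The genes were chosen with earlier results of these data known, so these counts describe the list and are no independent support. At day 7, 26 genes fell and 1 rose with Erg (background 24.8% lower, 23.7% higher), with a median of -0.64 against -0.02. With Sox17 at day 7, 46 fell and 1 rose (background 25.0% and 29.5%), with a median of -1.30 against 0.05. SEG at day 7 gave 26 lower and 2 higher (background 21.8% and 22.5%), with a median of -0.56 against 0.01. Without the outlying day 7 libraries, the counts of lower genes were 46 with Sox17 and 33 with SEG at day 7. The genes called lower with SEG only in that fit were Ifih1, Bst2, Ifitm3, Rtp4, Psmb8, Tap1 and Xaf1. The gene that rose was Irf1 with Erg at day 3, Parp14 with SEG at day 3 and Ifi27 in the other comparisons with 1, and with SEG at day 7 Parp14 and Ifi27 rose. With Sox17 at day 7, the 2 genes that passed in neither direction were Isg20 and Ifi35. Without the outlying day 7 libraries Isg20 passed as lower (-0.69, adjusted p = 9.2e-05) and Cxcl10 did not pass (-1.78, adjusted p = 0.0591). The plot of log2 changes shows where the calls lie.

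**Figure D2:**
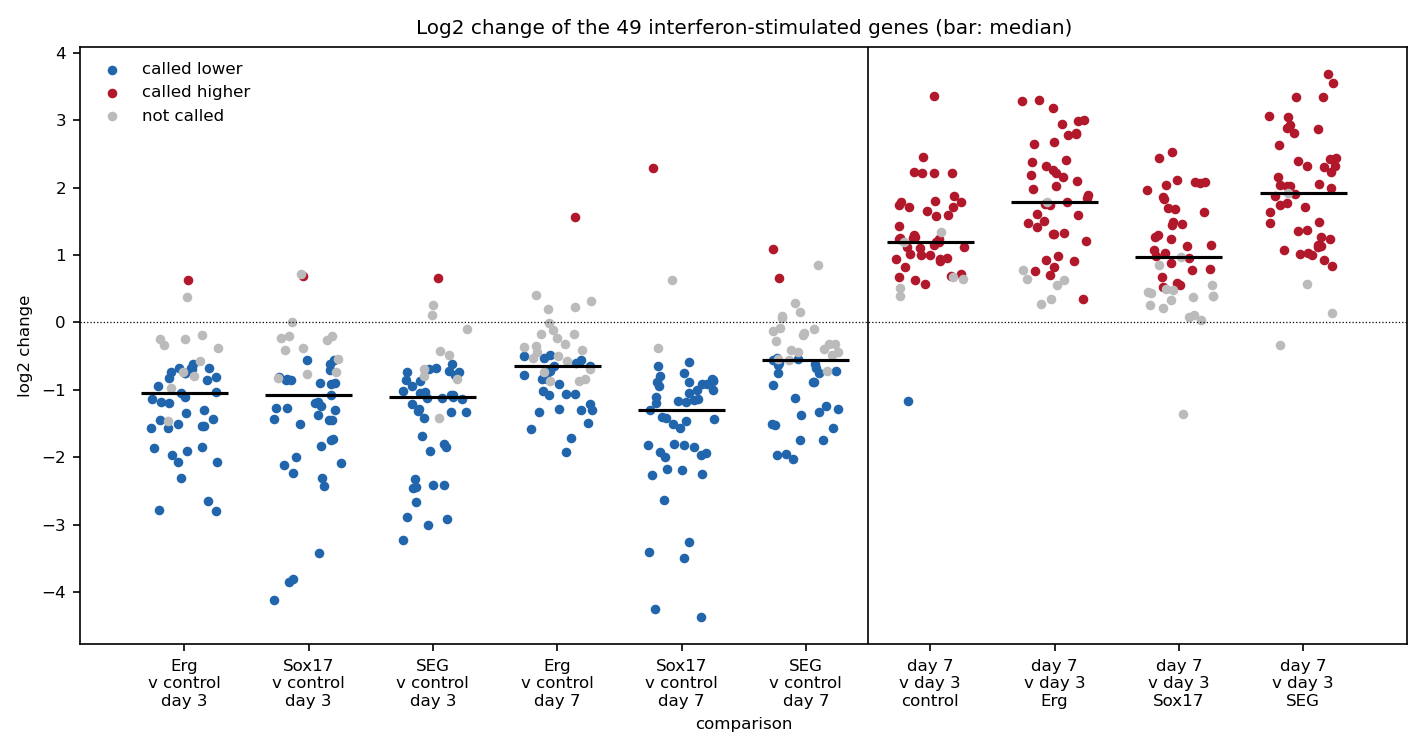
Log2 change of each of the 49 genes (points) in the 6 comparisons with control and in day 7 against day 3 of the 4 conditions, with the median as a bar. Blue points were called lower, red ones higher and grey ones neither; the medians lie between -1.30 and -0.56 on the left and between 0.97 and 1.93 on the right.

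Between day 3 and day 7 most of these genes rose, in control cells too. In control, 42 of 49 rose and 1 fell (background 16.1% higher, 13.4% lower), with a median log2 change of 1.19 against 0.03 over all genes tested. With Erg, 42 rose and 0 fell (background 15.6% and 14.4%), with a median of 1.78. With SEG, 45 rose and 0 fell (background 14.3% and 12.9%), with a median of 1.93. In each of these conditions the large majority of the genes moved together. With Sox17, 32 rose and 0 fell (background 16.6% and 12.9%), with a median of 0.97, and 44 rose without the outlying day 7 libraries. These 4 comparisons share no library, and their overlap over all genes tested was not counted, so the next counts have no background. Of the 49 genes, 30 rose in all 4 conditions, 11 in 3, 3 in 2, 2 in 1 and 3 in none. The 3 were Eif2ak2, the kinase that stops translation on double-stranded RNA, Cxcl10, a chemokine for T cells, and Ifi27. Without the outlying day 7 libraries, Eif2ak2 passed as higher with Sox17 (0.35, adjusted p = 0.0489) and SEG (0.84, adjusted p = 4.23e-05), Cxcl10 passed as higher with SEG (1.84, adjusted p = 0.0383), and Ifi27 passed as lower with SEG (-0.49, adjusted p = 0.000349).

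Cells other than fibroblasts can carry interferon-stimulated genes, and markers of macrophages moved in some of the same comparisons. The sum of 18 macrophage markers was 145 to 146 CPM in control at day 3 and 184 to 235 at day 7, 209 to 226 and 939 to 979 with Erg, 106 to 126 and 178 to 286 with Sox17, and 190.2 to 204 and 258 to 342 with SEG. Against control, 17 of the 18 rose and 1 fell with Erg at day 7 (background 23.7% higher, 24.8% lower). With SEG at day 7, 8 rose and 2 fell (22.5% and 21.8%), and with Sox17 at day 7, 1 and 2 (29.5% and 25.0%). With Erg at day 3, 7 rose and 1 fell (22.6% and 23.5%). With Sox17 at day 3, 0 rose and 4 fell (20.8% and 19.6%), and with SEG at day 3, 1 and 3 (20.0% and 20.2%). The markers thus rose beyond the background in some comparisons in which most of the 49 genes fell and not in others. The lower counts with Sox17 and SEG at day 3 lay near or below the background. The part of the markers in the fall of the 49 genes was not tested. Between the days the markers rose too, 10 of 18 in control (background 16.1% higher), 18 with Erg (15.6%), 12 with Sox17 (16.6%) and 15 with SEG (14.3%). Their part in the rise of the 49 genes was not tested. Ptprc, the marker of all white blood cells, held 0.670, 0.694 and 0.819 CPM in control at day 3 and 1.25, 1.05 and 1.02 CPM at day 7. Among all 24 libraries its highest count was 156, in a library outside control. The 9 markers of T cells, B cells and plasmacytoid dendritic cells summed to at most 0.944 CPM in a library, and Cd3e was at 0 counts in all 24.

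The 3 largest falls with Erg were those of Zbp1 (-2.79), Oas2 (-2.78) and Ifi44 (-2.65) at day 3 and of Ifi44 (-1.93), Oas2 (-1.71) and Irf7 (-1.57) at day 7, on the log2 scale. With Sox17 they were Ifi44 (-4.12), Oas3 (-3.85) and Oas2 (-3.81) at day 3, and Oas3 (-4.37), Ifi44 (-4.25) and Oas2 (-3.49) at day 7. With SEG they were Ifit3 (-3.23), Zbp1 (-3.01) and Oas2 (-2.91) at day 3, and Oas3 (-2.03), Ifit2 (-1.96) and Ifit3 (-1.95) at day 7. Oas2 and Oas3 make 2-5A, a small messenger that sets off the cutting of RNA, Ifi44 is a cytoplasmic protein, and the other genes are described with their roles. Leaving out any 1 library ended 0 of these calls.

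Among the sensors of viral nucleic acid, the RNA helicases Ddx58 (RIG-I), Ifih1 (MDA5) and Dhx58, the Z-form nucleic acid sensor Zbp1 and Eif2ak2 (PKR), all 5 fell with each factor at day 3. At day 7, 4 fell with Erg, 5 with Sox17 and 3 with SEG. Without the outlying day 7 libraries Ifih1 also passed as lower with SEG (-0.39, adjusted p = 0.0495). Over all genes tested, 23.5%, 19.6% and 20.2% were called lower with Erg, Sox17 and SEG at day 3. At day 7 the shares were 24.8%, 25.0% and 21.8%. They apply to the counts of every role below too. Ddx58 (ENSMUSG00000040296, chr4:40203773-40239828, minus strand of mm10) held, at day 3, 148, 121 and 136 CPM in control, 59.9, 74.1 and 63.3 with Erg, 52.9, 61.2 and 57.4 with Sox17 and 81.2, 63.99 and 101 with SEG. Its day 7 libraries held 218, 231 and 215 CPM in control, 124, 121 and 105 with Erg, 40.98, 86.5 and 97.3 with Sox17 and 132, 188 and 181 with SEG. Every factor library was below every control library of its day. The log2 change ± SE was -1.04 ± 0.22 (adjusted p = 0.000719) with Erg, -1.24 ± 0.22 (adjusted p = 0.000136) with Sox17 and -0.72 ± 0.22 (adjusted p = 0.0133) with SEG at day 3. SEG lost its call without control replicate 1 or SEG replicate 2, where the change was as small as -0.57. Ddx58 had, at day 7, -0.92 with Erg and -1.56 ± 0.23 (adjusted p = 7.14e-06) with Sox17, while SEG had -0.40 ± 0.22 (adjusted p = 0.15). Zbp1 gave the largest fall with Erg at day 3, from 48.5, 40.6 and 40.5 CPM in control to 4.57, 8.54 and 5.60, a log2 change of -2.79 ± 0.35 (adjusted p = 1.78e-06). With SEG it stood at 4.65, 2.34 and 9.05 CPM and with Sox17 at 21.6, 27.96 and 22.7, and the fall with Sox17, -0.84 ± 0.32 (adjusted p = 0.0431), was lost without any 1 of the 6 libraries compared, with values down to -0.75.

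The signalling group holds Stat2 and Irf9, parts of the complex that binds the response element, the factors Irf7 and Irf1, the Isg15 protease and receptor brake Usp18, and the ubiquitin ligase Trim25 that activates RIG-I. With Sox17 all 6 fell at both days. With SEG 5 fell at day 3 and 5 at day 7, and with Erg 4 fell at each day while Irf1 rose at day 3. Irf7 (ENSMUSG00000025498, chr7:141262706-141266481, minus strand of mm10), the factor that amplifies interferon production, held 82.8, 76.3 and 75.9 CPM in control, 18.9, 43.7 and 20.4 with Erg, 17.98, 24.3 and 29.003 with Sox17 and 20.7, 16.6 and 35.6 with SEG at day 3. By day 7 the Irf7 level was 816, 828 and 779 CPM in control, 292, 266 and 256 with Erg, 137, 50.1 and 65.8 with Sox17 and 378, 311 and 249 with SEG. All libraries of each factor lay below those of control on the same day. In control the rise between the days was the largest among the 49 genes there (3.37 ± 0.37, adjusted p = 5.85e-07). With Sox17 at day 7 the log2 change against control was -3.26 ± 0.36 (adjusted p = 2.43e-07), and -3.77 without the outlying day 7 libraries. It was -1.57 ± 0.34 (adjusted p = 0.000745) with Erg and -1.37 ± 0.34 (adjusted p = 0.00238) with SEG. Stat2 fell in all 6 comparisons with control, by 0.68, 1.27 and 1.12 on the log2 scale at day 3 with Erg, Sox17 and SEG, and fell by 1.02, 1.81 and 0.88 at day 7. Irf9 also fell in all 6, with log2 changes from -0.91 to -0.56.

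Irf1 (ENSMUSG00000018899, chr11:53770014-53778374, plus strand of mm10), a factor that also answers to interferon gamma and to NF-kB, was the exception at day 3. Its libraries held 20.8, 21.5 and 23.5 CPM in control, 34.8, 33.1 and 34.1 with Erg, 12.3, 16.1 and 16.5 with Sox17 and 15.4, 12.6 and 13.3 with SEG at that day. At day 7 they held 47.9, 49.002 and 49.4 CPM in control, 45.2, 42.8 and 42.4 with Erg, 25.1, 26.2 and 26.6 with Sox17 and 29.7, 30.3 and 27.01 with SEG. The Erg libraries lay above control at day 3, and those of Sox17 and SEG lay below it at both days. With Erg it rose by 0.63 ± 0.10 (adjusted p = 2.04e-05) on the log2 scale at day 3, and at day 7 its change was -0.17 ± 0.10 (adjusted p = 0.162). Between these days the effect of Erg changed by -0.80 ± 0.14 (adjusted p = 0.000267). With SEG the change against control was -0.68 ± 0.10 (adjusted p = 1.31e-05) at day 3, and against Erg of the same day it was -1.31 ± 0.10 (adjusted p = 1.02e-09).

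The IFIT proteins bind foreign RNA that lacks the cap marks of the host, and their 4 genes here lie close together on chromosome 19. All 4 fell with Sox17 and with SEG at both days, 3 fell with Erg at day 3 and 2 at day 7. Ifit3 (ENSMUSG00000074896, chr19:34583531-34588731, plus strand of mm10) held 334, 247 and 285 CPM in control, 77.7, 134 and 85.4 with Erg, 10.1, 18.8 and 52.4 with Sox17 and 33.7, 17.5 and 41.05 with SEG at day 3. At day 7 its libraries stood at 927, 951 and 837 CPM in control, 539, 418 and 523 with Erg, 169, 122 and 146 with Sox17 and 257, 244 and 202 with SEG. No factor library reached a control library of its day. With SEG at day 3 its fall, -3.23 ± 0.42 (adjusted p = 3.02e-06), was the largest among the 49 genes in that comparison, and with Sox17 the change was -3.42 ± 0.43 (adjusted p = 1.4e-06). With Erg the change was -1.54 ± 0.39 (adjusted p = 0.00313) at day 3 and -0.88 ± 0.39 (adjusted p = 0.0686) at day 7, where only Ifit1 and Ifit2 passed. Ifit3b followed it, from 69.02, 48.005 and 59.3 CPM in control at day 3 to 3.87, 7.24 and 22.4 with Sox17. Within the Sox17 group of day 3 the libraries ran from 10.1 to 52.4 CPM of Ifit3, a wider spread relative to the level than in control. Ifit2 fell with SEG at day 7, with a log2 change of -1.96 ± 0.29 (adjusted p = 1.39e-05), and its rise between the days passed in 2 of the 4 conditions.

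The OAS proteins make 2-5A, short chains of adenosine that set off the cutting of RNA, while the OAS-like proteins work in other ways. Of the 5 genes, all fell with Sox17 at both days, 4 fell with Erg at both days, and 4 and then 2 with SEG. Oasl2 (ENSMUSG00000029561, chr5:114896936-114912234, plus strand of mm10) held 131, 106 and 108 CPM in control, 29.6, 53.2 and 33.95 with Erg, 67.9, 83.1 and 73.8 with Sox17 and 47.7, 31.8 and 79.03 with SEG at day 3. Oasl2 at day 7 held 274, 290.4 and 257 CPM in control, 182, 165 and 153 with Erg, 146, 139 and 162 with Sox17 and 205, 245 and 212 with SEG. The control libraries were again the highest at each day. Its log2 change at day 3 was -1.56 ± 0.24 (adjusted p = 1.69e-05) with Erg and -1.12 ± 0.23 (adjusted p = 0.000595) with SEG. With Sox17 it was -0.62 ± 0.23 (adjusted p = 0.0386), which 5 of the 6 fits that leave out 1 library did not call, with values down to -0.51. The deepest falls of the family were those of Oas3 and Oas2. Oas3 (ENSMUSG00000032661, chr5:120753098-120777661, minus strand of mm10) held 59.1, 65.2 and 55.1 CPM in control at day 7 against 2.81, 2.46 and 3.44 with Sox17, a log2 change of -4.37 ± 0.28 (adjusted p = 8.25e-11) and the largest fall among the 49 genes. In SEG of the same day it held 13.9, 15.96 and 14.1 CPM and with Erg 27.6, 27.7 and 18.8. Oas2 fell from 11.3, 10.8 and 7.88 CPM in control at day 3 to 0.904, 2.05 and 1.38 with Erg, 0.811, 0.765 and 0.505 with Sox17 and 1.23, 0.792 and 1.94 with SEG. These log2 changes were -2.78, -3.81 and -2.91. Other Oas1 genes of the mouse resemble Oas1a closely, so its counts are uncertain.

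The group of Mx proteins and other effectors holds the GTPases Mx1 and Mx2, the radical enzyme viperin (Rsad2) with its neighbour Cmpk2, the exonuclease Isg20, tetherin (Bst2), the membrane protein Ifitm3, and Samd9l and Rtp4. Of the 9 genes, 5 fell with each factor at day 3. At day 7, 3 fell with Erg, 8 with Sox17 and 3 with SEG, beside 24.8%, 25.0% and 21.8% of all genes tested. With 9 genes, the counts with Erg and SEG lay near those shares. Without the outlying day 7 libraries, Bst2 (-0.29), Ifitm3 (-0.59) and Rtp4 (-0.54) also passed as lower with SEG. Ifitm3 (ENSMUSG00000025492, chr7:141009586-141010770, minus strand of mm10) held 537, 527 and 510.2 CPM in control, 655, 694 and 703 with Erg, 215, 222 and 216 with Sox17 and 319.9, 283 and 369 with SEG at day 3. Its levels at day 7 were 1067, 1067 and 1032 CPM in control, 1067, 962 and 1133 with Erg, 1163, 414 and 448 with Sox17 and 969.6, 688 and 675 with SEG. With Erg the libraries lay above control at day 3 and among it at day 7, and neither change passed (0.38 and 0.00 ± 0.25 (adjusted p = 0.999)). With Sox17 it fell by 1.27 ± 0.26 (adjusted p = 0.000438) at day 3. At day 7 the outlying Sox17 library stood above control and the other 2 well below it. The day 7 change was -0.64 ± 0.25 (adjusted p = 0.0379) with all libraries and -1.26 (adjusted p = 3.55e-12) without the outlying ones. With SEG at day 3 it was -0.70 ± 0.25 (adjusted p = 0.0347), which 1 of 6 fits that leave out a library called. Bst2 likewise held 888, 237 and 263 CPM with Sox17 at day 7 against 799, 864 and 854 in control, and its fall of 0.86 on the log2 scale, a call kept in 1 of the 6 fits that leave out 1 library, became -1.71 without those libraries. Mx1 rose in control from 1.45, 1.68 and 1.38 CPM at day 3 to 8.16, 9.64 and 7.02 at day 7 (2.45 ± 0.32, adjusted p = 5.4e-06). Mx2, which the annotation lists as a polymorphic pseudogene, stood at 23.9, 20.7 and 21.4 CPM with Erg at day 7 against 15.8, 16.2 and 17.8 in control, a change of 0.41 ± 0.22 (adjusted p = 0.132) that did not pass. The viperin gene did not pass in any comparison with control but Sox17 at day 7 (-1.85 ± 0.55, adjusted p = 0.00829). Its Sox17 libraries at day 3 ran from 3.03 to 30.3 CPM.

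**Figure D3:**
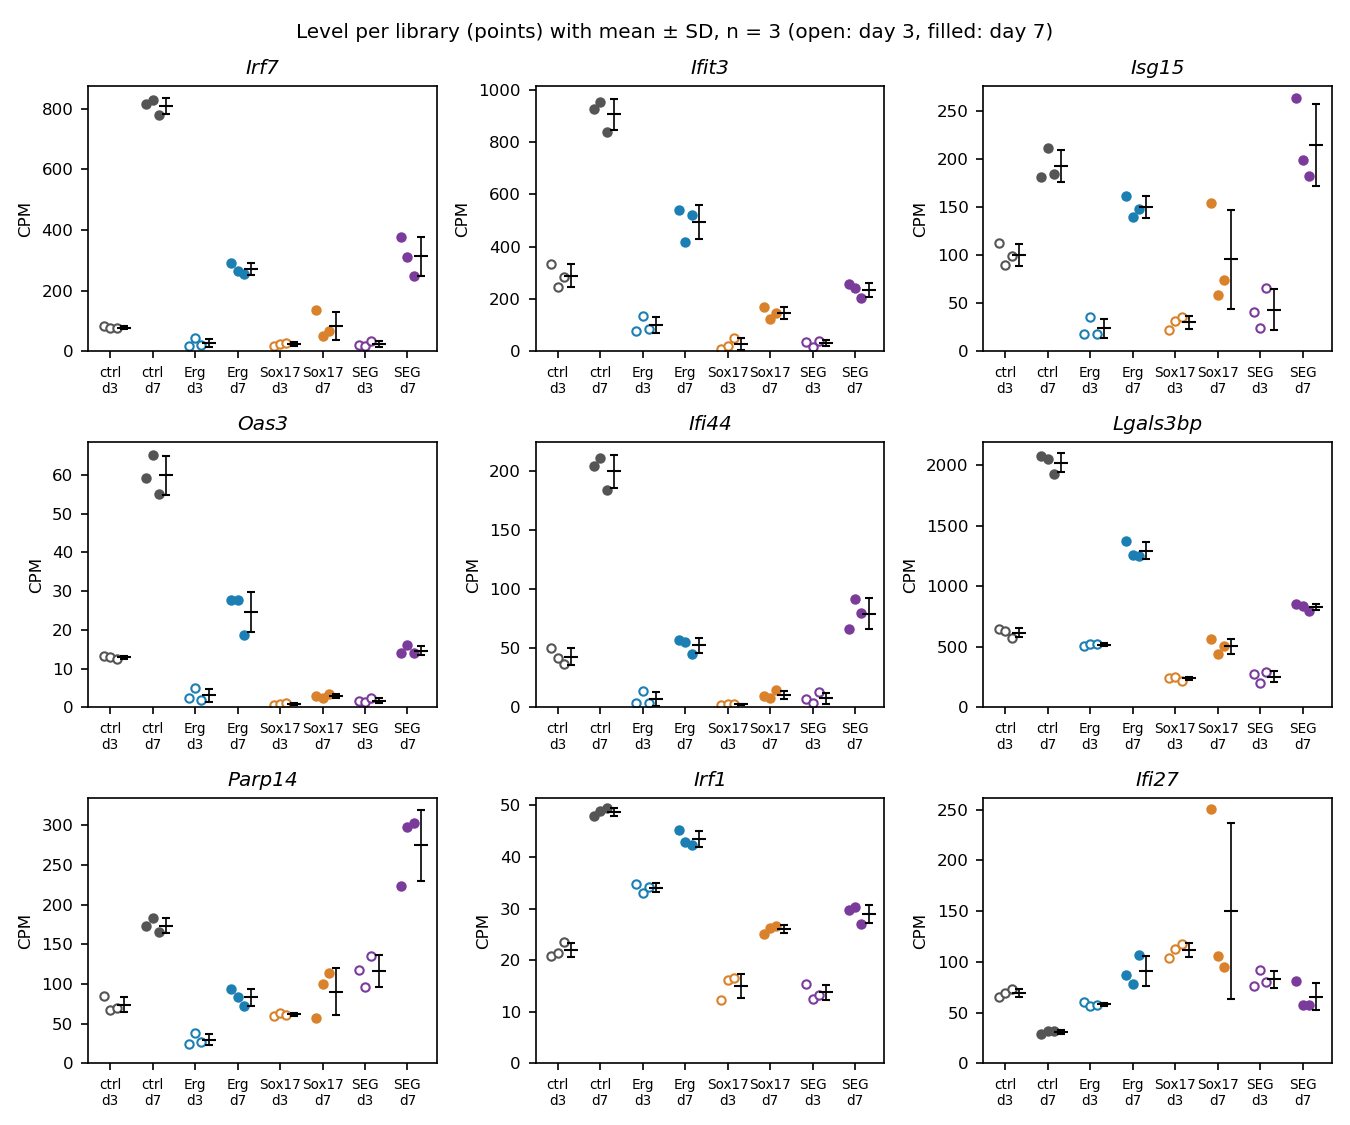
Level in CPM (y axis, linear, from 0) of 9 of the genes in each library (points, open at day 3 and filled at day 7) with the mean and SD of each group of 3. Irf7, Ifit3, Oas3, Ifi44 and Lgals3bp are highest in control at day 7, Parp14 is highest with SEG at day 7, and Irf1 with Erg at day 3 stands above control of that day. Ifi27 is lowest in control at day 7, and 1 Sox17 library at day 7 stands at 250.4 CPM.

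Isg15 is a small protein that is joined to others much as ubiquitin is, Herc6 is the ligase that joins it, and Parp9, Dtx3l and Parp14 add ADP-ribose or ubiquitin. Isg15 (ENSMUSG00000035692, chr4:156199424-156200818, minus strand of mm10) held 112, 89.4 and 98.97 CPM in control, 18.02, 35.7 and 18.2 with Erg, 22.3, 31.8 and 36.1 with Sox17 and 41.01, 23.9 and 65.6 with SEG at day 3. At day 7 its levels were 182, 212 and 184 CPM in control, 162, 139.7 and 148 with Erg, 155, 58.6 and 73.99 with Sox17 and 264, 199 and 183 with SEG. All factor libraries lay below control at day 3, and the SEG libraries lay among or above it at day 7. The log2 change at day 3 was -2.07 ± 0.36 (adjusted p = 8.18e-05) with Erg, -1.74 with Sox17 and -1.20 ± 0.35 (adjusted p = 0.00869) with SEG, the last with -0.91 (adjusted p = 0.0552) without SEG replicate 2. At day 7 it was -0.36 ± 0.34 (adjusted p = 0.398) with Erg and 0.16 ± 0.34 (adjusted p = 0.748) with SEG. Its rise in control between the days, 0.94 ± 0.34 (adjusted p = 0.0451), passed in none of the 6 fits that leave out 1 library, while its rises with Erg (2.65), Sox17 (1.68) and SEG (2.31) passed in all of theirs.

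Parp9, Dtx3l and Parp14 lie close together on chromosome 16 and parted from one another with SEG. Dtx3l (ENSMUSG00000049502, chr16:35926511-35939151, minus strand of mm10) and Parp9 (ENSMUSG00000022906, chr16:35938470-35972605, plus strand of mm10) overlap at their starts on opposite strands. No label states whether counting used strand, so reads of that stretch cannot be told apart. Parp14 (ENSMUSG00000034422, chr16:35832874-35871544, minus strand of mm10) lies on the far side of Dtx3l from Parp9. Parp14 held 84.7, 66.98 and 69.4 CPM in control, 24.6, 37.7 and 27.4 with Erg, 60.2, 63.003 and 61.5 with Sox17 and 118, 95.7 and 135 with SEG at day 3. The day 7 libraries held 173, 183 and 165 CPM in control, 93.1, 84.1 and 72.4 with Erg, 57.2, 101 and 114 with Sox17 and 223, 298 and 303 with SEG. The SEG libraries were above every control library at both days, and the Erg libraries below. With SEG, Parp14 rose by 0.66 ± 0.20 (adjusted p = 0.0133) at day 3 and by 0.66 ± 0.20 (adjusted p = 0.0113) at day 7. The day 7 call held in every fit that left out 1 library, and the day 3 call was lost without control replicate 2 or 3 or SEG replicate 3, with 0.54 as the smallest value. Its neighbours moved the other way with SEG. Parp9 held 121, 126 and 115 CPM in control and 65.4, 78.1 and 75.6 with SEG at day 7, a log2 change of -0.72 ± 0.16 (adjusted p = 0.000814), and -1.05 at day 3. Dtx3l changed by -0.88 ± 0.19 (adjusted p = 0.000907) at day 7 and -0.86 at day 3. With Erg all 3 fell at both days, Parp14 with a log2 change of -1.30 ± 0.21 (adjusted p = 3.23e-05) at day 3. The Dtx3l call with Erg at day 3, -0.61, was lost without Erg replicate 1 (-0.53). Whether the SEG effect on Parp14 differs from that on its neighbours was not tested.

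**Figure D4:**
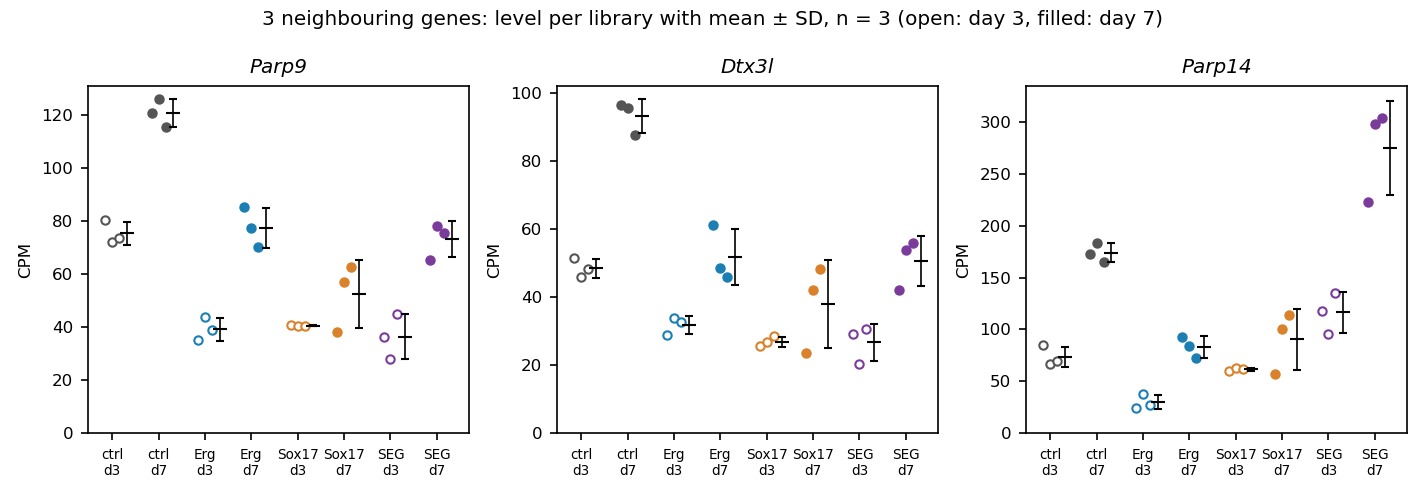
Level in CPM (y axes, linear, from 0) of the 3 neighbouring genes Parp9, Dtx3l and Parp14 in each library (points, open at day 3 and filled at day 7), with the mean and SD of 3 libraries beside each group. With SEG the points of Parp9 and Dtx3l lie below control of the same day and those of Parp14 above it.

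The guanylate-binding proteins (Gbp2, Gbp3, Gbp7) and the immunity-related GTPases (Igtp, Irgm1, Iigp1) serve the defence against microbes inside the cell. They answer to interferon gamma above all. All 6 fell with Erg at day 3 and with Sox17 at day 7, while 2 fell with Sox17 at day 3, 5 with SEG at day 3, and 3 each with Erg and SEG at day 7. Irgm1 (ENSMUSG00000046879, chr11:48861968-48871683, minus strand of mm10) held 193, 153 and 169.6 CPM in control, 73.4, 99.3 and 77.7 with Erg, 107, 133 and 151 with Sox17 and 134, 100.5 and 149 with SEG at day 3. Its day 7 levels were 285, 289.5 and 257 CPM in control, 202, 186 and 187 with Erg, 108, 168 and 177 with Sox17 and 245, 279 and 254 with SEG. At day 3 the Erg libraries were the lowest, and at day 7 the Sox17 libraries. Its log2 change with Erg at day 3 was -1.04 ± 0.17 (adjusted p = 5.34e-05), and with Sox17 at day 7 -0.88 ± 0.17 (adjusted p = 0.000249). With Erg at day 7 it was -0.53 ± 0.17 (adjusted p = 0.0158). With Sox17 and SEG at day 3 it was -0.40 and -0.42, which did not pass although every library lay below control. Gbp3 held 47.7, 47.6 and 45.4 CPM in control and 12.3, 25.1 and 14.6 with Erg at day 3 (-1.44 ± 0.24, adjusted p = 5.23e-05), against 39.2, 44.9 and 38.9 with Sox17 (-0.19 ± 0.23, adjusted p = 0.559). In control its level rose to 166, 167 and 152 CPM at day 7.

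Psmb8 and Psmb9 are subunits of the immunoproteasome, and Tap1 carries the peptides it cuts into the endoplasmic reticulum for display on class I molecules. Tap1 (ENSMUSG00000037321, chr17:34187553-34197225, plus strand of mm10) held 85.5, 85.1 and 85.7 CPM in control, 49.6, 61.6 and 48.7 with Erg, 39.5, 50.4 and 51.5 with Sox17 and 42.5, 34.7 and 49.8 with SEG at day 3. Tap1 reached, at day 7, 165, 173 and 157 CPM in control, 141, 120.0 and 138 with Erg, 111, 76.2 and 88.1 with Sox17 and 148, 128 and 119 with SEG. Every factor library was below control of its day. The falls at day 3 were -0.68 with Erg, -0.86 with Sox17 and -1.01 ± 0.15 (adjusted p = 1.07e-05) with SEG. Tap1 passed at day 7 with Sox17 (-0.84 ± 0.14, adjusted p = 5.43e-05) and not with Erg (-0.31) or SEG (-0.33). Without the outlying day 7 libraries it also passed with SEG (-0.38, adjusted p = 0.00949). Psmb9, whose start overlaps that of Tap1 on the other strand, held 8.59, 8.08 and 8.85 CPM in control at day 3, 1.81, 1.35 and 2.02 with Sox17 and 1.23, 1.40 and 2.09 with SEG. Its changes there were -2.31 ± 0.24 (adjusted p = 1.58e-07) and -2.42 ± 0.25 (adjusted p = 1.44e-07), against -0.67 with Erg, a call lost without control replicate 3 or Erg replicate 1 or 3 (down to -0.59). Psmb8 held 57.6, 16.6 and 18.4 CPM with Sox17 at day 7, where the highest value is the outlying library, and 68.1, 72.2 and 66.1 in control. Cxcl10 was scarce and uneven, with 0.460, 1.80 and 11.5 CPM in the 3 Sox17 libraries at day 3, and it passed against control with Sox17 at day 7 alone (-1.82 ± 0.74, adjusted p = 0.0427), in none of the 6 fits that leave out 1 library.

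Of the 5 remaining genes, Lgals3bp (ENSMUSG00000033880, chr11:118392751-118402092, minus strand of mm10), a secreted glycoprotein that binds galectins, had a small spread between libraries. It held 643, 630.2 and 572 CPM in control, 503, 522 and 526 with Erg, 245, 249 and 221 with Sox17 and 273, 198 and 290.1 with SEG at day 3. At day 7 its levels were 2075, 2052 and 1929 CPM in control, 1372, 1261 and 1248 with Erg, 565, 444 and 504 with Sox17 and 850.4, 839 and 797 with SEG. In both days the order was control, Erg, then SEG and Sox17, and the SEG and Sox17 libraries overlapped at day 3. Its changes against control were -1.37 ± 0.11 (adjusted p = 3.6e-09) with Sox17 and -1.28 ± 0.11 (adjusted p = 1.1e-08) with SEG at day 3. At day 7 they were -2.00 ± 0.11 (adjusted p = 1.06e-11) and -1.28 ± 0.11 (adjusted p = 7.42e-09). With Erg it was -0.25 ± 0.11 (adjusted p = 0.0692) at day 3, which did not pass, and -0.64 ± 0.11 (adjusted p = 7.07e-05) at day 7. Ifi44 (ENSMUSG00000028037, chr3:151730922-151749960, minus strand of mm10) held 50.6, 41.4 and 37.05 CPM in control, 3.50, 13.6 and 3.66 with Erg, 2.11, 2.88 and 2.44 with Sox17 and 7.11, 3.54 and 12.9 with SEG at day 3. Ifi44 at day 7 held 204, 211 and 184 CPM in control, 56.96, 55.6 and 45.5 with Erg, 9.58, 7.56 and 14.5 with Sox17 and 66.5, 92.1 and 79.5 with SEG. With Sox17 the change was -4.12 ± 0.47 (adjusted p = 4.15e-07) at day 3, the largest fall there, and -4.25 ± 0.45 (adjusted p = 1.08e-07) at day 7.

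Ifi27 (ENSMUSG00000064215, chr12:103434211-103440239, plus strand of mm10), which encodes a small membrane protein, ran against the rest. It held 65.2, 68.9 and 73.5 CPM in control, 60.04, 56.6 and 57.7 with Erg, 104, 113 and 118 with Sox17 and 76.1, 91.9 and 80.1 with SEG at day 3. Later, at day 7, Ifi27 held 28.6, 31.7 and 31.8 CPM in control, 86.9, 78.5 and 107 with Erg, 250.4, 105 and 95.4 with Sox17 and 81.1, 57.8 and 57.7 with SEG. In control it fell between the days by 1.17 ± 0.25 (adjusted p = 0.00115), and it was the only 1 of the 49 genes that fell there. Against control at day 7 it rose with all 3 factors, by 1.57 ± 0.25 (adjusted p = 3.22e-05) with Erg, 2.29 ± 0.26 (adjusted p = 2.39e-07) with Sox17 and 1.09 ± 0.25 (adjusted p = 0.00115) with SEG. Without the outlying day 7 libraries the Sox17 change was 1.74 and still passed. At day 3 its rise with Sox17, 0.69 ± 0.24 (adjusted p = 0.0289), was called in 1 of the 6 fits that leave out 1 library. Other genes of its family stand beside it in the mouse genome and resemble it, so its counts are uncertain.

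The factor conditions were also set against one another. At day 3, 11 genes were higher and 14 lower with Sox17 than with Erg (background 28.4% and 26.8%), with a median log2 difference of -0.02. Those higher were Cxcl10 (2.18), Zbp1 (1.95), Xaf1 (1.30), Gbp3 (1.24), Parp14 (1.04), Oasl2 (0.95), Ifi27 (0.94), Ifi35 (0.75), Rtp4 (0.64), Irgm1 (0.64) and Gbp2 (0.49), of which Rtp4, Cxcl10 and Ifi35 lost the call without some 1 of the 6 libraries. Below Erg stood, among others, Ifit3 (-1.88), Oas3 (-1.79) and Ifitm3 (-1.65) among those lower. SEG against Erg at day 3 gave 5 higher and 12 lower (background 25.7% and 25.3%), led among the lower by Psmb9 (-1.74 ± 0.25, adjusted p = 8.33e-06). The higher ones were Parp14 (1.96), Oas1a (1.23), Isg15 (0.86), Gbp3 (0.83) and Irgm1 (0.62), and of these Oas1a, Isg15 and Gbp3 did not keep the call in each fit that leaves out 1 library. The majority turned to higher without Erg replicate 2 (9 higher of 17 called) or SEG replicate 2 (10 of 18). SEG and Sox17 differed in 4 genes higher and 5 lower with SEG at day 3 (background 14.0% and 14.2%), with Zbp1 at -2.17 ± 0.35 (adjusted p = 6.04e-05). Higher with SEG were Ifi44 (1.66), Oas3 (0.97), Parp14 (0.92) and Trim25 (0.45), of which Trim25, Oas3 and Ifi44 lost the call in at least 1 such fit. The shares in these 3 comparisons lay near the background or below it.

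At day 7 the Sox17 libraries stood apart from both other factor conditions. With SEG, 28 genes were higher and 1 lower than with Sox17 (background 18.8% and 21.2%), with a median log2 difference of 0.68, and without the outlying day 7 libraries the numbers were 33 and 1. The largest differences were those of Ifi44 (2.92 ± 0.42, adjusted p = 1.36e-05), Cxcl10 (2.67) and Oas3 (2.34 ± 0.27, adjusted p = 7.21e-07), and the gene that was lower was Ifi27 (-1.20). Against Erg, 29 genes were lower and 2 higher with Sox17 (background 25.9% and 29.1%), with a median of -0.66. Oas3 had -3.09 ± 0.27 (adjusted p = 8.14e-09), Mx2 -2.33 ± 0.23 (adjusted p = 4.14e-08) and Ifi44 -2.33 ± 0.42 (adjusted p = 8.19e-05). The 2 genes that were higher, Ifi27 and Isg20, lost their calls without the outlying day 7 libraries (0.13 and 0.10). SEG and Erg at day 7 differed in 5 genes higher and 8 lower with SEG (background 24.7% and 24.8%), below the shares of all genes. Higher with SEG were Cxcl10 (1.73), Parp14 (1.72), Isg20 (1.13), Oas1a (0.88) and Irgm1 (0.43), of which Oas1a, Irgm1 and Cxcl10 lost the call in at least 1 fit without a library, and Ifit3, Ifit3b and Mx2 were lower (-1.07, -1.05 and -1.04). The Ifit3 and Ifit3b calls were each lost in 4 of the 6 fits that leave out 1 library, and that of Mx2 in none.

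Whether an effect differed between the days was tested on the difference itself. The Erg effect moved upward in 9 genes and downward in 1 (background 9.34% and 10.4%), with a median change of 0.56. For Sox17 the effect moved upward in 1 gene and downward in 2 (background 7.61% and 6.66%), with a median of -0.34. For SEG it moved upward in 6 genes and downward in 0 (background 6.09% and 5.77%), with a median of 0.71. The fall of Isg15 with Erg thus grew smaller, from -2.07 to -0.36 (1.70 ± 0.49, adjusted p = 0.0178), while that of Irf7 with Sox17 grew deeper, from -1.72 to -3.26 (-1.53 ± 0.48, adjusted p = 0.0368). The first was lost without Erg replicate 1 or 3 of day 3, with 1.54 as the smallest value. The second held in 2 of the 12 fits that leave out 1 library, with -1.23 as the smallest. Without both outlying day 7 libraries the second was -2.04 (adjusted p = 0.000151). These counts depend on single libraries: they ran from 4 to 15 for Erg, from 2 to 7 for Sox17 and from 1 to 12 for SEG when 1 library was left out. Without the outlying day 7 libraries they were 25, 7 and 22, and the share over all genes in that fit is not given here. The Erg effect uses neither of those libraries itself, but all groups share 1 estimate of the spread.

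**Figure D5:**
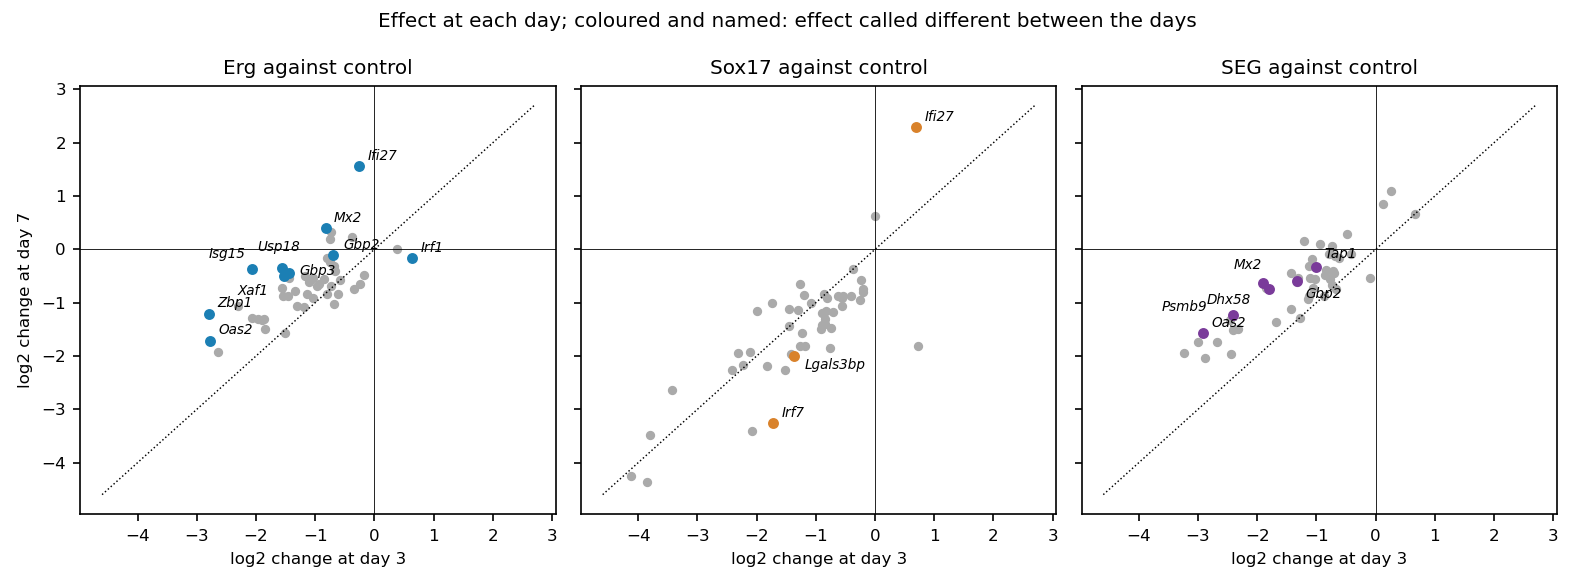
Log2 change against control at day 3 (x axis) and at day 7 (y axis) of the 49 genes for Erg, Sox17 and SEG, with the line of equal change dotted. Named, coloured points were called different between the days; most Erg and SEG points lie above the line, and the named Sox17 points are Ifi27 above it and Irf7 and Lgals3bp below it.

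Genes that make or receive interferon were read beside the 49. Of 10 interferon ligand genes, 7 (Ifna1, Ifna5, Ifne, Ifnk, Ifng, Ifnl2 and Ifnl3) had 0 counts in all 24 libraries, which allows a level of up to 0.00491 CPM over all libraries. Ifnb1 had 20 counts in all, Ifna4 had 6 and Ifna2 had 2, and the highest count of a ligand in a library was 8. Interferon transcripts were therefore at or near the limit of detection at this depth, and this floor covers counting error only. Ifnlr1, the interferon lambda receptor, was scarce, with at most 1.85 CPM in a library. Of 11 genes for receptors, kinases and Stat proteins, 3 rose and 5 fell with Erg at day 3, 1 and 7 with Sox17, and 3 and 2 with SEG. At day 7 the counts were 0 and 7 with Erg, 1 and 9 with Sox17, and 2 and 4 with SEG. The shares over all genes tested were, at day 3, 22.6% higher and 23.5% lower with Erg, 20.8% and 19.6% with Sox17 and 20.0% and 20.2% with SEG. At day 7 they were 23.7% and 24.8%, 29.5% and 25.0%, and 22.5% and 21.8%. Against these, the SEG counts at day 3 and the higher count with Erg at day 3 lay near the background. Ifnar1, a subunit of the type I receptor, had 0.06 with Erg, 0.02 with Sox17 and 0.65 ± 0.14 (adjusted p = 0.000718) with SEG at day 3. Its partner Ifnar2 fell with Erg (-0.66), Sox17 (-0.70) and SEG (-0.60) at day 7. Ifngr1, the ligand-binding subunit for interferon gamma, fell by 0.96 ± 0.07 (adjusted p = 3.37e-10) with Sox17 at day 7. Its partner Ifngr2 had -0.20 with Erg, -0.43 with Sox17 and 0.37 with SEG at day 7, and Il10rb, shared by the lambda receptor, -0.29, 0.66 and 0.82. For Jak2, which serves the gamma receptor, the values were -0.09, -1.02 and -0.40, and for Stat3 -1.15, -0.64 and -0.68. The kinase Jak1 fell with Sox17 at both days (-0.60 and -1.28), and Tyk2 had changes from -0.31 to 0.19 over the 6 comparisons.

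Of 15 genes that lead to interferon production, 4 rose and 2 fell with Erg at day 3, and 1 rose and 8 fell with Sox17 at day 7. The Erg counts lay near or below the share over all genes (22.6% higher and 23.5% lower), and those with Sox17 stood beside 29.5% higher and 25.0% lower. The remaining counts were 0 higher and 6 lower with Sox17 and 1 and 4 with SEG at day 3, and 3 and 4 with Erg and 1 and 6 with SEG at day 7. Beside them, 20.8% and 19.6% of all genes were called higher and lower with Sox17 and 20.0% and 20.2% with SEG at day 3. At day 7 the shares were 23.7% and 24.8% with Erg and 22.5% and 21.8% with SEG. Irf8, a factor of myeloid cells that is none of the 49, held 2.18, 2.23 and 2.15 CPM in control and 86.6, 89.3 and 82.1 with Erg at day 3, and 25.7, 23.1 and 24.1 with SEG. Its log2 change with Erg was 5.29 ± 0.18 (adjusted p = 8.47e-15), and with Sox17 -1.22. Irf8 thus moved against most of the 49 genes with Erg. Sting1, the adaptor for cytosolic DNA, fell with Erg (-1.29) and Sox17 (-1.29) at day 3 and not with SEG (0.05). Of 10 negative regulators, 5 fell with each factor at day 3 and none rose. The shares over all genes there were 23.5% lower with Erg, 19.6% with Sox17 and 20.2% with SEG, and 20.0% to 22.6% higher. Socs1, which blocks the kinases and is itself induced by interferon, fell in all 6 comparisons with control, from -1.35 to -0.70.

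A further 61 interferon-stimulated genes outside the 49, also chosen with earlier results of these data known, were tested. With Erg, 35 of them fell and 7 rose at day 3 (background 23.5% lower, 22.6% higher), and 35 and 3 at day 7 (24.8% and 23.7%). With Sox17, 44 fell and 0 rose at day 3 (19.6% and 20.8%), and 51 and 0 at day 7 (25.0% and 29.5%). With SEG, 49 fell and 0 rose at day 3 (20.2% and 20.0%), and 36 and 1 at day 7 (21.8% and 22.5%). Those that rose with Erg at day 3 included Fgl2 (2.60) and Ifitm1 (1.40). The deepest falls were those of Oas1g (-2.95), Tgtp1 (-2.68) and Apol9b (-2.24) with Erg at day 3, and Fgl2 (-5.35), Ccl5 (-5.09) and Ifi207 (-4.69) with Sox17 at day 7. With Sox17 at day 3 they were Slfn2 (-4.24), Slfn8 (-3.63) and Ifi207 (-3.56), and with SEG at day 3 Ifitm1 (-3.02), Gbp6 (-2.63) and Slfn2 (-2.62). At day 7 the deepest were Ccl5 (-2.38), Ifi203 (-1.97) and Tgtp2 (-1.66) with Erg, and Ms4a4d (-3.09), Ccl5 (-2.89) and Ifi207 (-2.82) with SEG. Those that rose at day 7 included Epsti1 (1.49) and Trim21 (0.45) with Erg and Mov10 (0.43) with SEG. Between the days, 51 rose in control (background 16.1% higher), 51 with Erg (15.6%), 39 with Sox17 (16.6%) and 53 with SEG (14.3%). The rise in control was led by Ccl5 (3.51), Gbp4 (3.11) and Gbp6 (3.04). With Erg the leaders were Oas1g (4.53), Gbp4 (3.41) and Tgtp2 (3.21). With Sox17 they were Ifi27l2a (2.79), Oas1g (2.43) and Epsti1 (2.34), and with SEG Gbp6 (3.87), Oas1g (3.76) and Ifitm1 (3.70). The genes that fell between the days were Slfn9 in control (-0.56) and Fgl2 with Sox17 (-1.03).

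The 49 genes followed one another closely over the 24 libraries. The Pearson correlation of each gene's log2 CPM with the mean score of the other 48 had a median of 0.911 and was over 0.9 for 28 genes. It was below 0.7 for 5, Ifi27 (-0.499), Cxcl10 (0.582), Parp14 (0.627), Isg20 (0.659) and Ifi35 (0.684). These are descriptions over libraries that share 8 groups, so they carry no p. Among genes outside the 49, those most like the mean score included Phf11b (0.979), Gm12250 (0.971), Tgtp2 (0.966), Parp12 (0.963), Tor3a (0.962), Parp11 (0.956), Irgm2 (0.954), Gm4951 (0.953) and Phf11d (0.952). Of the 10 most alike, 8 stand on the interferon lists used here. Of the 50 most alike, 26 stand on those lists, and likeness says nothing of shared control.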

How the data were processed

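RNA of mouse heart fibroblasts in EGM2 was extracted with an RNeasy kit and sequenced as mRNA libraries, per the labels' protocols. The authors deposited 1 table of counts per gene for the 24 libraries. Salmon, DESeq2 and the build mm10 are named in the submitters' processing notes, without versions. The strand setting, the annotation release and the rounding of Salmon's estimates are unstated in the labels; such estimates divide reads among alike genes, so close paralogs share error.

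The 49 genes and all other lists were chosen with earlier results of these data known. Columns were matched to samples by the labels' descriptions. With edgeR 4.0.16 in R 4.3.3, genes were kept by filterByExpr with a minimum count of 10, scaled by TMM and fitted as 8 group means over all 24 libraries. The quasi-likelihood test gave p-values adjusted by Benjamini-Hochberg over the 14804 genes kept, with a threshold of 0.05, in 19 comparisons. The SE is the log2 change divided by the square root of F. CPM are relative to the TMM-scaled library size, and the mean score uses a prior count of 2. The test was checked on simulated counts.

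Any of the 49 could be named. Values in every library were given for the gene with the highest mean CPM of each role, and the 3 largest falls and rises against control, the genes called against the majority of a comparison, the receptors, kinases and ligands, the 3 further interferon-stimulated genes that moved most each way and the 10 genes most like the mean score were named. Other genes, such as Mx1, Gbp3, Bst2, Psmb8, Irf8, Sting1 and Socs1, were chosen after their values were seen. Some genes that this rule names are not reported here. Alternatives were a test beyond 1.5-fold, only the groups compared, RLE size factors, no filter, a filter of 10 counts in 3 libraries, DESeq2 1.42.0, a replicate block, each library left out in turn, and both outlying libraries left out. Same-numbered libraries of Sox17 and SEG at day 7 deviated together from their group means (correlations of 0.690, 0.396 and 0.441). Replicates 2 and 3 did so across those groups (0.390 and 0.418). Erg replicate 3 of day 7 deviated with replicate 1 of Sox17 (0.482) and of SEG (0.396) at that day. It held 5.26% of its counts in genes of ribosomal proteins, against 4.50% and 4.18% in its group. Of 168 pairs of unlike number, 21 had a correlation over 0.1. All 3 same-numbered pairs passed 0.1 in no other pair of groups, and the labels tie the numbers to no shared batch. Figures were drawn with matplotlib 3.10.9.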

Additional observations from a re-analysis of the deposited data

Results flagged for a closer look

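Between day 3 and day 7 the effect of a factor, its log2 change against control, differed by the test of that difference in edgeR for the genes given here, and a positive value means that the effect moved upward. The effects at the 2 days share no library, while the 3 factors share the control libraries of each day.

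For Erg the change was 1.59 for Zbp1, 1.22 for Usp18, 1.07 for Oas2, 1.23 for Mx2, 1.70 for Isg15, 0.59 for Gbp2, 0.99 for Gbp3, 1.82 for Ifi27 and 1.03 for Xaf1, and it was -0.80 for Irf1. Of these 10, the calls of Irf1, Mx2, Ifi27 and Xaf1 held in each of the 12 fits that leave out 1 library. For Sox17 the change was -1.53 for Irf7, 1.60 for Ifi27 and -0.63 for Lgals3bp, and 2 of the 3 calls held in each such fit, that of Irf7 being the exception. For SEG it was 1.06 for Dhx58, 1.34 for Oas2, 1.27 for Mx2, 0.73 for Gbp2, 1.18 for Psmb9 and 0.69 for Tap1. None of these 6 calls held in each such fit. All 6 held without both outlying day 7 libraries, a fit that called more of the 49 genes for each factor.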

How the results depend on the processing

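Counts here are of the 49 genes called in either direction. Leaving out 1 library gave, against control at day 3, 32 to 39 with Erg, 32 to 36 with Sox17 and 30 to 39 with SEG. At day 7 it gave 23 to 25 with Erg, 43 to 47 with Sox17 and 24 to 27 with SEG. SEG against Erg gave 12 to 18 at day 3 and 7 to 12 at day 7, SEG against Sox17 6 to 9 and 25 to 33, and Sox17 against Erg 21 to 24 and 24 to 34. Day 7 against day 3 gave 38 to 42 in control, 41 to 42 with Erg, 29 to 40 with Sox17 and 45 to 46 with SEG. The change of effect gave 4 to 15 for Erg, 2 to 7 for Sox17 and 1 to 12 for SEG. In SEG against Erg at day 3 the majority turned to higher without Erg replicate 2 (17 called, 9 higher) or SEG replicate 2 (18 called, 10 higher), and in the change of the Sox17 effect without Sox17 replicate 3 of day 3 (3 called, 2 higher).

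Testing for changes beyond 1.5-fold, which asks for more, gave 24 with SEG at day 3, 13 with Erg and 14 with SEG at day 7 against control. It gave 8 and 3 for SEG against Erg at days 3 and 7, 3 and 14 for SEG against Sox17, 14 and 14 for Sox17 against Erg, 27 for control and 21 for Sox17 between the days, and 1, 1 and 0 for the change of the Erg, Sox17 and SEG effects, the Sox17 call being the higher one. Fitting only the groups compared gave 42 for Erg at day 7, 26 for SEG against Erg at either day, 14 for SEG against Sox17 at either day, 20 for Sox17 against Erg at day 7, 12 for Sox17 between the days, and 34 and 18 for the change of the Erg and SEG effects. Without both outlying day 7 libraries there were 26 and 20 for SEG against Erg at days 3 and 7, 16 for SEG against Sox17 at day 3, and 25, 7 and 22 for the change of the Erg, Sox17 and SEG effects. DESeq2 gave 5 and 11 for the change of the Sox17 and SEG effects. Shares over all genes are not given for these alternatives, and the cause of these shifts was not tested.

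With a replicate block the count was 38 with Erg, 36 with Sox17 and 40 with SEG at day 3, and 26, 47 and 28 at day 7, and all 19 counts stayed within 1.5 times. Of 84 same-numbered pairs, 9 had a correlation over 0.1, so the numbers were not taken as pairs. For SEG against Sox17 at day 7, whose same-numbered libraries deviated together, the block gave 30 called against 29. That block is a replicate term shared by all groups, and a pairing limited to Sox17 and SEG at day 7 was not fitted. RLE size factors and both filters also kept all counts within 1.5 times. Genes outside the 49 were not refitted with libraries left out. The SE with Sox17 at day 7 was widest for Cxcl10, whose call there was lost without any 1 library.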
